A study of Psammomys obesus with 8 samples.

Results

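The genes described here are developmental regulators with a homeodomain, a paired domain or a T-box, taken from 8 families (Hox, Pax, Lhx, Nkx, Irx, Dlx, Tbx and the family of Six3). Their regions were chosen by name: every contig of the table whose mouse match lay inside a gene with such a symbol, whatever its counts. This gave 253 contigs in 41 gene symbols, of 125082 contigs inside 19098 genes and 548060 contigs in all. Of the 41 symbols, 37 are protein-coding family genes with 215 contigs, and 4 are antisense or opposite-strand transcripts with 38 contigs (Nkx2-2as with 19, Pax6os1 with 16, Six3os1 with 2 and Dlx6as1 with 1).

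The tissue was hypothalamus of fat sand rats (Psammomys obesus), gerbils of dry lands that turn obese and diabetic on rich chow. All were males at a postnatal age of 16 weeks. Methylated DNA was captured with MethylMiner beads, sequenced, and counted per contig in 8 libraries. Of these, 4 carry the name low-low and the diet label low lipid, and the other 4 carry the name standard-low and the diet label standard lipid; both groups share sex, age and tissue. GEO's design text speaks of paternal diets and the title of parental diet. The labels name no strain and do not say whether the libraries of a group came from separate animals, fathers or litters, so the p-values rest on a spread between samples that may be technical.

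Homeobox and T-box proteins bind DNA and set regional identity in the embryo. Hox genes lie in 4 clusters (A to D) and pattern the hindbrain, spinal cord and trunk, whereas Six3, Pax6, Lhx, Dlx and Nkx2 genes act in the forebrain and its hypothalamic primordium. Many such genes have CpG-rich promoters that are held by Polycomb proteins and carry little DNA methylation where the gene is silent. The methyl-CpG binding domain on the beads retains fragments with several methylated CpG sites, so a contig in the table is a stretch of DNA that was retained, and its count depends on its CpG sites and length as well as on its methylation. Absence of a gene from the table can therefore mean few methylated CpG sites, few CpG sites of any kind, or counts too low for the table. It can also mean captured sequence that has no mouse match and so no gene name, since 208288 of the 548060 contigs had a match. These cannot be told apart here.

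To show what the captured sequence looks like, 300-base windows of 4 contigs are printed below as the table gives them, each being the window of its contig with the most CpG sites. The first is the contig nearest to any Hox gene, and the other 3 are the member contigs with the lowest p-values between diets. Positions are those of the mouse match, on a mouse build not given in the sources used here. The letters are sand rat sequence, and capitals mark each CpG.
Hoxd13 flank, contig 2048089, match chr2:74672474-74672876 on the minus strand: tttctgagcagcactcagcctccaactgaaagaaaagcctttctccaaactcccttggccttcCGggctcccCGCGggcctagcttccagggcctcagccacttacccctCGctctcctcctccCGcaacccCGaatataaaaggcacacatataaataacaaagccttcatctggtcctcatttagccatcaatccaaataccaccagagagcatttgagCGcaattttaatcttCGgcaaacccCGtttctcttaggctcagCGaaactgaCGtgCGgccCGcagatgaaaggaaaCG
Pax7, contig 2735783, match chr4:139798965-139799052 on the minus strand: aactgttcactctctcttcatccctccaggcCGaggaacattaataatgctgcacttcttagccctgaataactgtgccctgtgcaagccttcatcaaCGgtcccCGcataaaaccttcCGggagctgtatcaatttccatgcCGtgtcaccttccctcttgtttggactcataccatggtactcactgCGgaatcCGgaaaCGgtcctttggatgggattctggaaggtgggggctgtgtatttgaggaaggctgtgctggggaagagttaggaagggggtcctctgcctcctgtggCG
Tbx5, contig 4539316, match chr5:119870481-119870517 on the minus strand: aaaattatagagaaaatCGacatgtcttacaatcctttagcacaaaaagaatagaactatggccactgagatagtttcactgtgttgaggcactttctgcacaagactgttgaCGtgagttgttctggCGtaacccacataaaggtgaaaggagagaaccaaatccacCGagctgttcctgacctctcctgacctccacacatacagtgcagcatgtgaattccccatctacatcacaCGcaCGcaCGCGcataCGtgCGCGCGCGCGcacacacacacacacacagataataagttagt
Pax3, contig 1679343, match chr1:78167546-78168259 on the plus strand: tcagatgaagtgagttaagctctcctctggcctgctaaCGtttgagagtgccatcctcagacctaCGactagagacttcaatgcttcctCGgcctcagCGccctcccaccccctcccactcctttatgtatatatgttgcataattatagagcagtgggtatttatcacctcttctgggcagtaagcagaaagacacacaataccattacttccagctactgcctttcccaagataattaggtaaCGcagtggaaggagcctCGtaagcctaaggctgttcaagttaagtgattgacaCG
These windows hold 14, 9, 14 and 7 CpG sites in that order. In the Tbx5 contig many of the CpG sites stand in a run of CG and CA repeats, and the mouse match covered 37 of its 361 bases. In the Pax3 contig the sites are scattered, and the match covered 717 of 721 bases.

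Capture inside the coding gene was uneven across the families. Taking as the list of family genes every coding symbol that either the sand rat RefSeq annotation or the table names, 37 of 100 genes had a contig inside, 25 had contigs only in the flanking sequence nearest to them, and 38 had none. All 9 Pax genes had a contig inside (99 contigs), as had 12 of 13 Tbx genes (72 contigs) and 6 of 8 Lhx genes (23 contigs). Inside capture reached 3 of 6 genes of the Six3 family (9 contigs), 2 of 6 Irx genes (3 contigs), 4 of 13 Nkx genes (8 contigs) and 1 of 6 Dlx genes (1 contig). None of the 39 Hox genes had one.

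**Figure D1:**
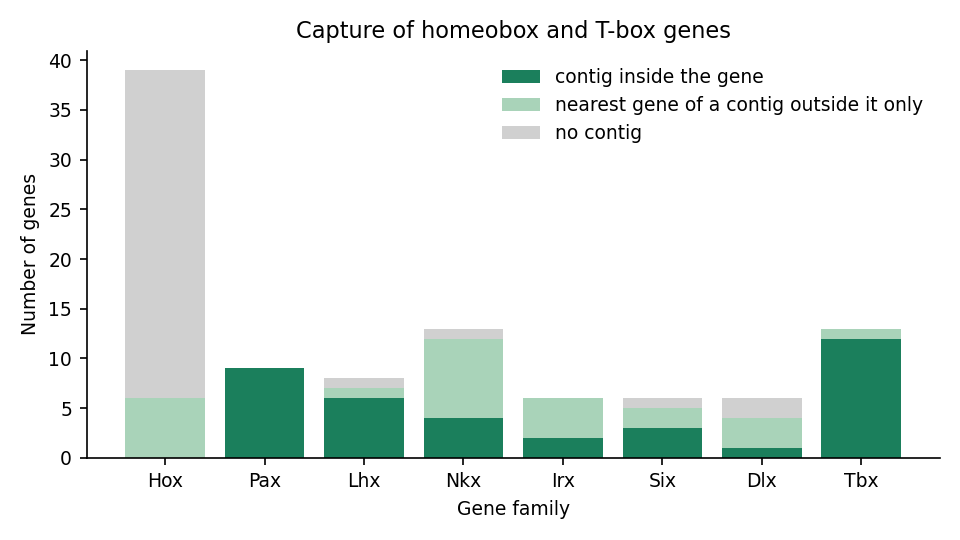
Number of coding genes (vertical axis) of each family (horizontal axis) with a contig inside, with contigs only in flanking sequence, or with none. Pax and Tbx were captured inside nearly every gene, and Hox genes inside none of 39.

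Leaving Hox aside, 37 of 61 family genes (60.7%) had a contig inside, or 35 of the 57 that the sand rat annotation names. The background was 12095 of 15946 named protein-coding genes of that annotation (75.8%). In the background no names that differ between sand rat and mouse were joined, so such genes count there as not captured. Family genes differ in length and neighbours of a cluster are not independent, so no test was made, and gene length was not compared. Contigs were most numerous in Pax5, a regulator of B cells and of the midbrain-hindbrain border (36), followed by Pax2, which acts in kidney, ear and midbrain (18), and Tbx15, a gene of skeletal and skin patterning (18). Pax3 had 12, Pax7 and Tbx5 had 11 each, and Pax6, the eye and forebrain regulator, had 9.

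Several genes of the ventral forebrain were not captured inside at all. Of 14 genes chosen for a role in hypothalamus, pituitary or adjoining forebrain, 8 had a contig inside, beside 60.7% of the family genes other than Hox. Those without were Nkx2-1 and Nkx2-4, which are ventral forebrain genes, Irx3, a gene linked to the FTO obesity locus, Six6, an eye and pituitary regulator, Lhx1 and Dlx1. The nearest contigs to Nkx2-1 (9 contigs) began 22699 bases away, and those to Irx3 (14 contigs) 1340 bases away, whereas Six6, Lhx1 and Dlx1 were not named as nearest gene of any contig. The Irx genes had many flanking contigs, with 46 nearest to Irx1, 35 to Irx4 and 24 to Irx5, of which the closest lay 30 bases from Irx5.

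Each Hox cluster held a long stretch without a matched contig. In HoxA no matched contig lay over 131 kb (chr6:52149713-52280962). In HoxC the empty stretch ran for 133 kb (chr15:102908636-103041587), with Hoxc13 12.5 kb in from one edge, Hoxc4 4.75 kb in from the other, and 116 kb from the first to the second. HoxD had an empty stretch of 78.6 kb (chr2:74672877-74751497), and HoxB had stretches of 66.5 kb (chr11:96307159-96373614) and 59.5 kb (chr11:96246381-96305928).

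Stretches of this length are few among the intervals of the table and not particular to Hox. Over all 189702 intervals between neighbouring matched contigs, the median was 5.04 kb, the mean 13.7 kb and the 99th percentile 136 kb, and 4.65% were over 50 kb. Intervals at least as long as the longest made up 1.06% for HoxA, 3.06% for HoxB, 1.05% for HoxC and 2.37% for HoxD. Each of these was picked as the longest within 200 kb of the contig nearest to a Hox gene of the cluster. The shares are of intervals, and long intervals cover a larger share of bases, so they do not measure how unusual the Hox clusters are.

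**Figure D2:**
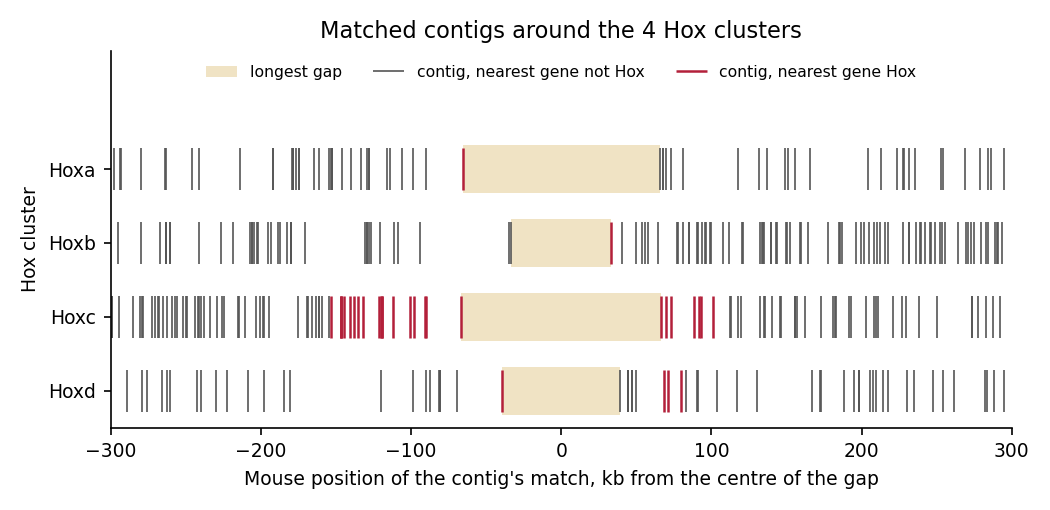
Matched contigs around the 4 Hox clusters, by distance in kb from the centre of the longest empty stretch of each cluster. Matched contigs are missing over 131 kb in HoxA, 66.5 kb in HoxB, 133 kb in HoxC and 78.6 kb in HoxD.

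Some captured sequence did lie within the clusters under other names, since the table gives 1 gene per contig. In HoxB, 2 contigs lay inside the non-coding transcript 0610040B09Rik (chr11:96305929-96307158), with 2.08 ± 0.359 CPM (counts scaled to library size; SD, n = 4) in the low-low libraries and 1.75 ± 0.564 in the standard-low ones. In HoxD, 7 contigs lay inside 6720416L17Rik (chr2:74751498-74762287), at 11.4 ± 1.19 CPM for low-low against 13.7 ± 0.848 for standard-low. The log2 fold change of standard-low over low-low was 0.28 (edgeR unadjusted p = 0.0148, adjusted p = 0.807). An unadjusted p under 0.05 was found in 6.03% of all genes. A contig in a gene that overlaps a Hox gene could have been given the other name, so the count of 0 Hox genes is a count of names. Outside the genes, 6 Hox genes, among them Hoxb1, Hoxc4, Hoxc13, Hoxd1 and Hoxd13, were the nearest gene of 32 contigs.

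The nearest of these lay 875 bases from Hoxd13, the most posterior gene of its cluster, which shapes digits and genital buds. It is the first contig printed above, with 27 CpG sites in 836 bases. Its counts were 12, 19, 11 and 18 in low-low and 10, 16, 12 and 20 in standard-low, which overlap throughout (log2 fold change 0.09 ± 0.305 SE, edgeR adjusted p = 0.99). Some other flanking contigs had groups without overlap, as had 3.24% of all contigs. Hoxc13 contig 1331763 was higher in standard-low (log2 fold change 0.78, edgeR adjusted p = 0.854). With its low-low level in all 8 libraries it would lie below the table's lowest summed count, 81. Its lack of overlap is thus no support for a difference. Hoxc13 contig 1930528 (-0.47) and Hoxd1 contig 624223 (-0.23) were lower (edgeR adjusted p = 0.835 and 0.94).

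As DNA, the 253 contigs resembled other contigs inside genes in most measures. Their median length was 546 bases (518 for all contigs inside genes), their median GC content 50.1% (49.7%) and their median CpG density 2.32 per 100 bases (2.26). Density ran from 0.893 in a Tbx15 contig to 5.63 in a Six5 contig, and only 2 contigs, of Six5 and Dlx3, reached 5 CpG per 100 bases (0.791%, beside 1.73% of contigs inside genes). Zinc-finger genes from Zfp600 to Zfp999, another set of transcription factors (412 contigs in 103 genes), had a median of 2.44 and reached 5 in 7.28% of contigs.

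The mouse match was more complete in the homeobox and T-box set. It covered a median of 84.9% of the contig, beside 60.1% for all contigs inside genes and 64.4% for the zinc-finger genes. Mean counts per library ran from 10.1 to 101.5 with a median of 19.4 (20.8 for all inside genes), so single contigs had few reads, and counting error alone limits what can be seen in them.

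Between the diets, no contig of the set passed the test. With edgeR's quasi-likelihood test and Benjamini-Hochberg adjustment over the whole table, 0 of 253 were called at an adjusted p of 0.05, beside 0.0268% of all contigs (147 of 548060), and DESeq2 and limma voom called 0 as well. At an unadjusted p under 0.05 there were 6 (2.37%), 2 higher and 4 lower in standard-low, beside 5.68% of all contigs. In 6 contigs (2.37%), 3 higher and 3 lower, the libraries of the groups did not overlap in CPM, beside 3.24% of all contigs. Both shares lay below the background, so neither count sets the members apart.

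The changes were centred on 0. Scaling the libraries to each other places the bulk of the table there, so a shift in overall methylation could not be seen. The median log2 fold change of the 253 was 0.00, with 127 positive and 126 negative and a range from -0.70 to 1.03, beside a median of -0.02 over all contigs inside genes and 0.00 over all contigs. The standard error of a single contig's log2 fold change had a median of 0.268 and ran from 0.153 to 0.378.

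**Figure D3:**
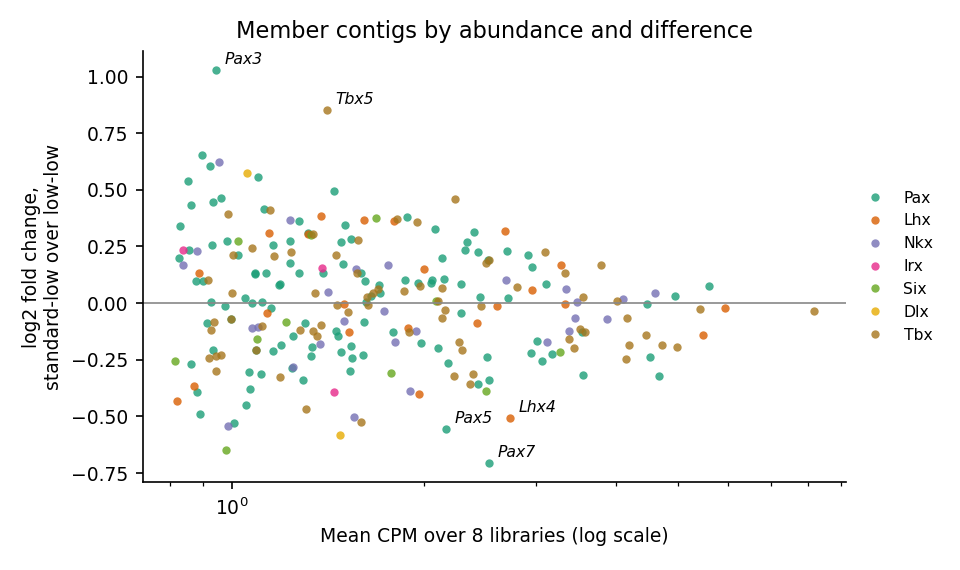
Log2 fold change of standard-low over low-low against mean CPM (log axis) for the member contigs, coloured by family, with the gene names of the 5 contigs of lowest p. Of 253 contigs, 6 had an unadjusted p under 0.05 and none passed adjustment, where the lowest adjusted p was 0.657.

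Pax7, a paired-box gene of dorsal neural tube and muscle stem cells, held the contig with the lowest p. Its counts were 40, 42, 44 and 37 in low-low and 32, 19, 22 and 18 in standard-low, so every low-low library lay above every standard-low one. That is 3.14 ± 0.289 CPM against 1.92 ± 0.559 (SD, n = 4), or -0.70 ± 0.218 SE on the log2 scale (edgeR adjusted p = 0.657). Only 89 of its 552 bases were aligned to mouse. Over all 11 contigs of Pax7 the groups overlapped, with 16.4, 18.1, 18.5 and 16.1 CPM for low-low, then 18.1, 15.1, 16.7 and 13.3 for standard-low.

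Pax3, the close paralogue of Pax7 that acts in neural crest, held the contig with the largest positive change among those at an unadjusted p under 0.05. Its counts were 9, 6, 10 and 7 in low-low and 21, 13, 13 and 13 in standard-low, again without overlap. With its low-low level in all 8 libraries this contig would lie below the table's lowest summed count, 81. Its presence in the table thus rests on its standard-low counts, so the lack of overlap is no support for a difference. CPM was 0.618 ± 0.158 against 1.27 ± 0.353, a log2 fold change of 1.03 ± 0.347 SE (edgeR adjusted p = 0.742). The sum over the 12 Pax3 contigs was 15.9 ± 1.19 CPM against 16.6 ± 2.2, a log2 fold change of 0.06 ± 0.102 SE.

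In Tbx5, a T-box regulator of heart and forelimb, counts of the third contig were 13, 11, 12 and 16 in low-low and 20, 29, 20 and 17 in standard-low. The groups did not overlap in CPM (log2 fold change 0.85 ± 0.284 SE, edgeR adjusted p = 0.731). Summed over its 11 contigs Tbx5 had 25.3 ± 0.727 against 25.6 ± 1.04 CPM, a difference smaller than the spread between libraries.

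The other 3 contigs at an unadjusted p under 0.05 were lower in standard-low, with overlapping libraries. They belonged to Pax5 (counts 37, 34, 35 and 28 in low-low, 28, 21, 15 and 19 in standard-low), to Lhx4, a pituitary LIM-homeobox gene (32, 51, 43 and 41, then 16, 34, 30 and 27), and to Dlx3, a gene of skin, teeth and placenta (20, 24, 27 and 21, then 11, 10, 20 and 15). The log2 fold changes were -0.55, -0.51 and -0.58, and the edgeR adjusted p-values 0.832, 0.833 and 0.869. The remaining contigs without overlap were in Nkx2-2as, higher in standard-low, and in Pax5 and Tbx19, lower.

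In the most abundant contigs the groups differed by less than their spread. A contig of Tbx10 (chr19:3992632-3993083) had 9.63, 6.46, 9.55 and 7.45 CPM in the low-low libraries, then 7.27, 6.49, 11.4 and 7.1 in the standard-low ones. The next was in Lhx6, a gene of forebrain interneurons, with 5.97 ± 0.4 against 5.88 ± 1.64 CPM. Those after it were in Pax5 (5.45 ± 0.595 against 5.74 ± 0.654), Lhx4 (5.74 ± 0.555 against 5.2 ± 1.71) and Tbx5 (5.46 ± 0.52 against 5.36 ± 0.506). The Pax5 contig rests on a match of 28 of its 1753 bases.

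Summing the counts over the contigs inside each gene gave 41 values with smaller errors (SE of the log2 fold change 0.0613 to 0.334, median 0.126). No gene was called by edgeR's quasi-likelihood test, beside 0.00524% of all genes (1 of 19098), and none by DESeq2 or limma voom. Only Dlx3 had an unadjusted p under 0.05 (2.44% of the genes, beside 6.03%), and no gene had groups without overlap (beside 3.48%). The Dlx3 sum has 1 contig, the one already given above, so it is not a second observation. By sign, 15 genes were positive and 26 negative (36.6% positive, beside 41.4% of all genes), with a median log2 fold change of -0.02 beside -0.03.

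The largest sums were those of genes with many contigs. Pax5 had 73.0, 62.8, 69.6 and 74.4 CPM under low-low, then 67.5, 71.4, 72.4 and 65.6 under standard-low, a log2 fold change of -0.01 ± 0.0613 SE. Pax2 had 37.7 ± 1.19 against 38.0 ± 3.16 CPM, and Tbx15 32.9 ± 2.25 against 31.4 ± 2.31. The transcript Nkx2-2as had 33.2 ± 1.68 against 31.8 ± 3.33. In each of these genes the groups differed by less than the spread between libraries.

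Per kilobase of captured contig, which sets genes of different contig length on 1 scale, levels ran from 1.58 CPM per kb in Nkx2-2 to 5.47 in Tbx10, with a median of 3.25 beside 3.65 for all genes. Lhx6 (5.15) and Nkx6-3 (4.82) followed Tbx10. At the low end Irx2 (1.62) and Pax1, a gene of vertebral column and thymus (1.7), lay next to Nkx2-2.

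**Figure D4:**
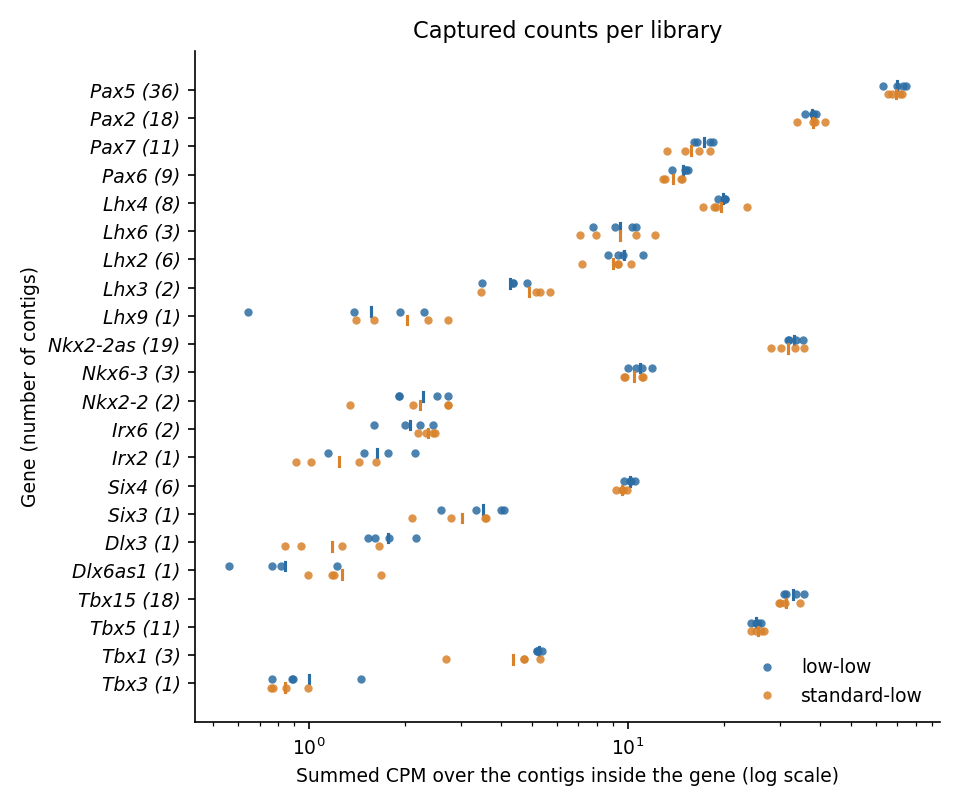
CPM summed over the contigs inside each named gene, 1 point per library on a log axis, with a short bar at the mean of each group and the number of contigs beside each gene. In each of the genes plotted the libraries of the groups overlap.

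Genes with a hypothalamic or pituitary role overlapped between diets in each case. Six3, which keeps the anterior forebrain from posterior fate, had 2.6, 3.34, 4.09 and 3.99 CPM (low-low), then 3.59, 2.11, 3.56 and 2.79 (standard-low) in its single contig (chr17:85626284-85626862). Nkx2-2, a gene of ventral neural progenitors, had 1.91, 2.53, 2.73 and 1.92, then 2.74, 1.35, 2.74 and 2.11. Pax6 had 15.4, 15.2, 15.2 and 13.7, then 14.7, 13.1, 12.8 and 14.8.

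Lhx2, which is needed for eye and forebrain, had 9.69 ± 1.05 CPM for low-low against 9.0 ± 1.29 for standard-low. Lhx3, which the pituitary needs to form, had 4.26 ± 0.555 against 4.91 ± 0.996, and Lhx6 9.45 ± 1.29 against 9.45 ± 2.34. Lhx9 had 1.56 ± 0.718 against 2.03 ± 0.628 in 1 contig. Tbx3, which acts in arcuate neurons, had 0.999 ± 0.312 against 0.842 ± 0.109, also in 1 contig. The edgeR adjusted p of these 8 genes ran from 0.84 in Lhx3 upward.

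The lowest p among genes belonged to those with 1 to 11 contigs. Dlx3 had 1.53, 1.78, 2.17 and 1.61 CPM (low-low), then 0.941, 0.843, 1.66 and 1.27 (standard-low), a log2 fold change of -0.58 ± 0.265 SE (edgeR adjusted p = 0.807). Dlx6as1, a transcript antisense to Dlx6, had the opposite sign, with 0.843 ± 0.28 against 1.27 ± 0.296 CPM (log2 fold change 0.58, edgeR adjusted p = 0.807). Tbx1, the pharyngeal gene, had 5.25 ± 0.0871 against 4.37 ± 1.14 CPM, Irx2 1.64 ± 0.426 against 1.25 ± 0.34, and Pax7 17.3 ± 1.21 against 15.8 ± 2.09. None of the 5 passed adjustment.

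The rest of the genes had overlapping groups as well. Tbx19, which switches on Pomc in pituitary corticotrophs, had 18.8, 16.0, 16.5 and 19.7 CPM under low-low, then 16.9, 18.1, 18.6 and 16.9 under standard-low, over 8 contigs. Lhx4 had 19.9 ± 0.471 against 19.6 ± 2.81 over 8 contigs, and Pax8, a thyroid and kidney gene, 9.17 ± 0.822 against 10.1 ± 1.72. Six4, a muscle and kidney regulator, had 10.1 ± 0.347 against 9.59 ± 0.301 over 6 contigs. The pair of Six5 contigs varied most, with 2.44, 1.49, 3.13 and 2.53 CPM, then 1.28, 1.01, 4.48 and 2.11, and the SE of its log2 fold change, 0.334, was the highest of the 41.

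Within the families, signs were mixed. Of the coding contigs, 55 of 99 in Pax genes had a positive log2 fold change, 32 of 72 in Tbx genes and 10 of 23 in Lhx genes. The contigs of the 4 antisense or opposite-strand symbols had a lower median CpG density than those of coding symbols (1.95 against 2.39 per 100 bases) and a lower median level (2.71 against 3.21 CPM per kb). None of these 38 had an unadjusted p under 0.05, 19 were positive and 19 negative, and the sum of Pax6os1 came to 28 ± 1.14 against 28.8 ± 0.803 CPM over 16 contigs.

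Summed over the 253 contigs, capture differed between diets by less than the spread of libraries. The low-low libraries held 498.3, 481.7, 499.4 and 503.9 CPM and the standard-low ones 497.8, 457.3, 515.1 and 484.9, or 495.8 ± 9.71 against 488.8 ± 24.4. The ratio of standard-low to low-low was 0.986.

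The spread of the standard-low libraries lay in the GC-rich contigs. In the 63 member contigs of at least 55% GC, low-low had 133.0, 130.1, 139.3 and 134.9 CPM and standard-low 130.0, 104.0, 156.5 and 118.9. In the other 190 the groups had 361.5 ± 7.54 and 361.4 ± 6.70 CPM. All 73686 contigs of that GC class in the table had the same order of libraries in standard-low, at 159575, 132709, 176152 and 146842 CPM, beside 164033 to 170927 in low-low. The part of this spread in the results above was not tested.

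**Figure D5:**
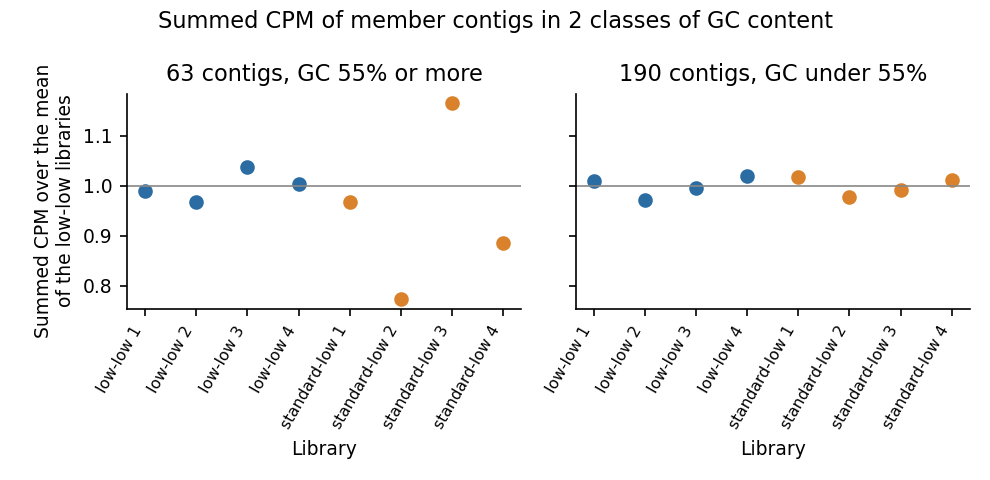
Summed CPM of the member contigs in each library, divided by the mean of the low-low libraries, for contigs of at least 55% GC and for the others. Before that division the standard-low libraries run from 104.0 to 156.5 CPM in the GC-rich class, and the other class has 361.5 ± 7.54 against 361.4 ± 6.70 CPM.

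Genes that work with or upon homeobox genes were read in the same way. All 11 Hox cofactors of the TALE homeobox group, which bind DNA together with Hox proteins, had contigs inside (189 contigs), with 0 called by edgeR and 9 at an unadjusted p under 0.05 (4.76%, beside 5.68% of all contigs). Of their gene sums 5 had a positive and 6 a negative log2 fold change. Meis2 alone was under 0.05, 1 of 11 gene sums, beside 6.03% of all genes. It had 66.6 ± 2.14 CPM under low-low against 74.0 ± 8.43 under standard-low (edgeR adjusted p = 0.807). Polycomb and Trithorax regulators, which keep homeobox genes off or on, were captured in 17 of 20 genes. No contig lay inside a gene named Kmt2a or Kmt2b. For this list and those below, each gene was looked up by 1 symbol. A gene with another name in the table therefore counts as without a contig. The 131 contigs of these regulators held 0 calls and 6 under 0.05 (4.58%, beside the same 5.68%). Of their gene sums, 5 had a positive and 12 a negative log2 fold change, beside 41.4% positive over all genes.

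Other homeobox and T-box genes of the forebrain were captured less widely, in 15 of 32 genes (75 contigs). The share was 60.7% for family genes other than Hox and 75.8% for named protein-coding genes of the sand rat annotation. Those without a contig inside included Otp and Bsx, which mark hypothalamic neurons, Rax, the gene of the hypothalamic and retinal primordium, Isl1, Hmx2 and Hmx3. None of the 75 contigs was called and 5 were under 0.05 (6.67%, beside 5.68% of all contigs). Of the 15 gene sums 2 were under 0.05, beside 6.03% of all genes: Gbx2 (0.883 CPM, then 1.52) and Barhl1 (1.4, then 0.928), each with an edgeR adjusted p of 0.807.

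Library totals ran from 11646180 to 13533441 counts, all 4 low-low libraries above all 4 standard-low ones. Cell-type marker genes were read for their methylation capture, which says nothing of their expression and so does not check the tissue. Over 9 lists (blood, endothelium, pituitary, telencephalon, neurons, astrocytes, oligodendrocytes, microglia, and tanycytes with ependymal cells), 41 of 51 genes had contigs inside, 515 in number, with 0 called and 34 at an unadjusted p under 0.05 (6.6%, beside 5.68% of all contigs). The share was highest for oligodendrocyte markers, with 7 of 37 contigs (18.9%), and was 3.85% for microglia. Gene sums with a positive and a negative log2 fold change numbered 2 and 5 for oligodendrocytes and 0 and 5 for microglia. They numbered 6 and 2 for neurons, 3 and 1 each for endothelium and telencephalon, and 2 and 1 for pituitary. For astrocytes they were 2 and 3, for tanycytes with ependymal cells 1 and 2, and for blood 1 and 1. The part of cell makeup in the results on homeobox and T-box genes was not tested. Genes under 0.05 numbered 3 of 41, beside 6.03% of all genes. These were Stmn2, Sox10 and Tmem119, 1 each in neurons, oligodendrocytes and microglia. The markers without a contig inside included Olig1, Olig2, Gfap, P2ry12, Cldn5, Rax, Prl, Cga and Hbb-b1.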

How the data were processed

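The deposited values are whole-number read counts for each contig in 8 libraries, and the tests took them unscaled. The submitters' processing notes name FastQC and BWA, with no version. The contig assembler, the mouse build and how multiply placed reads were handled are not stated. Per the file headers and contig names, each contig has a sequence, 8 counts and, for some, a mouse match with position, nearest gene and distance. Library names in the header are separated by spaces and the values by tabs, so columns were matched by header order. The lowest summed count was 81, so contigs below some minimum are not in the table, and requiring a mean of at least 10 counts removed none.

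Contigs and gene sums went into edgeR 4.0.16 under R 4.3.3 (TMM, quasi-likelihood, two-sided, Benjamini-Hochberg over the whole table, threshold 0.05). DESeq2 1.42.0 and limma 3.58.1 voom were alternatives. CPM used TMM-scaled totals and carries the SD over 4 libraries. The SE of an edgeR log2 fold change was derived as its absolute value over the square root of the quasi-likelihood F statistic. The test was checked on simulated data. Tables were handled with pandas 2.3.3 in Python 3.11.15, and figures were drawn with matplotlib 3.10.9. RefSeq names of the sand rat assembly mPsaObe1 served only to list family genes; 4 genes, among them Pax8, Tbx5 and Nkx1-1, were named by the table alone, and Nkx2-9 was joined to RefSeq's Nkx2-8. Some genes of the families and lists are counted but not reported by name here. Positions within exons or introns were not analysed here.

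Named by rule were the 2 genes of highest summed CPM per family, the 5 contigs and 5 genes of lowest p, the 5 contigs of highest CPM, and 14 genes with hypothalamic, pituitary or forebrain roles; other names were chosen after their values were seen. The members, lists and tests were chosen with earlier results of these data known, and the border of 55% GC after values were seen.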

Additional observations from a re-analysis of the deposited data

Results flagged for a closer look

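In 4 values, 1 library stood apart from the other 3 of its group by a large share of the group's range. Among the 66 groups of 4 libraries that were looked at, chance gives about 1 in 20. The Pax3 contig with the positive change had its highest standard-low value in replicate 1, at 1.80 CPM, with the next library at 1.10. The most abundant Tbx10 contig reached 11.4 CPM in standard-low 3, with the next at 7.27; this library also had the highest level in GC-rich contigs, and the Tbx10 contig has a GC content of 57.6%. In the Tbx1 gene sum low-low 3 was highest, at 5.38 CPM, next to 5.22. In the Pax6 gene sum low-low 4 was lowest, at 13.7 CPM, next to 15.2.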

How the results depend on the processing

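Member contigs and member genes called stayed at 0 under every alternative run, and the lowest adjusted p of a member was 0.352 for contigs (without standard-low 1) and 0.197 for genes (without standard-low 3). All 526 alternative values of the 32 named contigs and genes kept their side of the threshold, and 491 kept their sign. Part of this was fixed in advance. The run without the count filter repeats the main values, since the filter removed nothing. In named genes of 1 contig, the run on matches of at least 100 bits takes the same counts. The ratio of summed CPM, 0.986, ran from 0.968 to 1.007.

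The other 35 changed sign, in 10 named results whose log2 fold change lay within 0.0606 of 0. Signs and group means printed for these are therefore not to be read as a direction. With DESeq2, the gene sums became 0.0173 in Pax5, 0.00603 in Lhx4, 0.0264 in Lhx6 and 0.0049 in Nkx2-2. Lhx6 was 3.88e-07 with RLE factors and 0.00981 with library totals alone. With matches of at least 100 bits, Nkx2-2as was 0.00154 and Tbx5 -0.0245, and with contigs within 2 kb of the gene Pax2 was -0.00915. Leaving out 1 library, gene sums ran from -0.0633 to 0.0161 in Pax5, -0.036 to 0.0618 in Pax2, -0.128 to 0.0344 in Lhx4, -0.146 to 0.112 in Lhx6, -0.136 to 0.156 in Nkx2-2 and -0.00467 to 0.0406 in Tbx5. The abundant contigs ran from -0.248 to 0.0566 in Tbx10, -0.14 to 0.125 in Lhx6 and -0.0769 to 0.0343 in Tbx5.

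Over the whole table, contigs called numbered 147, against 32 with DESeq2, 50 with limma voom, 6 with matches of at least 100 bits and 65 with a mean of at least 20 counts; leaving out 1 library gave 68 (without low-low 2) to 207 (without standard-low 3). Genes called numbered 1, against 2 with DESeq2, 0 with limma voom and 0 to 30 leaving out 1 library (30 without standard-low 3, 8 without standard-low 2). A replicate block by the shared numbers gave 206 contigs and 3 genes. Deviations of same-numbered libraries correlated at 0.014, 0.032, 0.030 and -0.011. The highest correlations with a library of another number were 0.034, -0.0026, 0.011 and 0.021 in the same order. With few counts per contig, these values cannot tell whether the numbers pair the samples. Added after seeing the data, the ratio was 0.985 over coding symbols, and members under 55% GC had 361.5 against 361.4 CPM. Depth limits single contigs, whose median SE was 0.268 on the log2 scale.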
